A study of Mus musculus with 6 samples.

Results

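The genes described here are 8 genes of the mast cell and basophil lineages, Hdc, Cpa3, Ms4a2, Fcer1a, Mcpt8, Il1rl1, Mitf and Prg2. Their probe sets were found by taking every probe set, array controls left out, whose platform annotation gives 1 of these symbols and no other. This gave 9 probe sets of 7 genes among 22626 probe sets in all, with 2 probe sets each for Hdc and Mitf. Il1rl1 had no such probe set and was not analysed here. The genes were chosen with the differences between these same groups already known, so their group differences are given as a description, without p-values.

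RNA came from sorted LSK cells of mice, bone marrow cells without lineage markers that carry Sca-1 and Kit and include the stem cells. The groups were 3 samples labelled Gfi1 knockout and 3 labelled wild type, numbered 5, 7 and 8 in each, and each sample was measured on 1 single-colour array. Gfi1 is a zinc finger protein that represses transcription in blood stem and progenitor cells. The labels give neither the design of the knockout allele nor the strain, age or number of mice behind a sample, so the spread between samples may be technical in part. Cells were sorted by flow cytometry, and cRNA was made from 10 ng of RNA by 2 rounds of amplification.

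Mast cells and basophils are granulocytes that carry the high-affinity IgE receptor and release histamine, proteases and lipid mediators when it is cross-linked. Both arise from bone marrow progenitors under the control of GATA2, and mast cells also need MITF and the receptor Kit. Some of their genes are already transcribed in immature progenitors, long before granules form, which is called lineage priming. Hdc makes histamine from histidine, Cpa3 is a carboxypeptidase of mast cell granules, and Mcpt8 is a serine protease that marks basophils. Fcer1a and Ms4a2 encode the alpha and beta chains of the IgE receptor. Prg2 encodes the major basic protein of eosinophil granules, also found in basophils. Mitf is a transcription factor of the basic helix-loop-helix family.

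The start-site regions of Hdc and Cpa3, the genes whose groups did not overlap, and of Ms4a2, whose groups did, are shown to let the control sequences of these genes be set side by side. Each is the 250 bases before a transcript start, read 5′ to 3′ on the gene's own strand, which is the minus strand for all 3, from the RefSeq promoter table (GRCm38.p6). Capitals mark matches to the GATA motif, searched on both strands as the letters GATA with A or T just before and A or G just after.
Hdc, chr2:126618679-126618928: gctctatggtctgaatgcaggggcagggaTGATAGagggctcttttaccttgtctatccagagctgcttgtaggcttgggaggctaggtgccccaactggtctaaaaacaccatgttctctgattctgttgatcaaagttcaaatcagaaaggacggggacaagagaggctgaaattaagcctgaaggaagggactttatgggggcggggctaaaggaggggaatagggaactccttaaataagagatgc
Cpa3, chr3:20242182-20242431: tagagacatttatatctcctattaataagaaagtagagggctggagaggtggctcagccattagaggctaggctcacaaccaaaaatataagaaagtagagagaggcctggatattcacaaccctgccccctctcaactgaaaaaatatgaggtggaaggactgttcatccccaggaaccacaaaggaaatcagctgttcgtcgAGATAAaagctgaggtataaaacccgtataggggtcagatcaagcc
Ms4a2, chr19:11623720-11623969: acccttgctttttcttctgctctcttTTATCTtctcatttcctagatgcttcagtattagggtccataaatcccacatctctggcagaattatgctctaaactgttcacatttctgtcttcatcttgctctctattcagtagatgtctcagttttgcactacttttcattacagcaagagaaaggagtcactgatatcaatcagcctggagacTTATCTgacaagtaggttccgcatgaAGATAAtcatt

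The table held windows for 7 of the 8 genes, 10 in all because some genes have several starts, and it held none for Prg2. A GATA match lay in 8 of the 10 windows, of 6 genes, and in 26.5% of the 32851 windows of the same length in the whole table. Cpa3 had 1 match, whose first base lay 46 bases before the start, and Ms4a2 had 3, the nearest 11 bases before it. The match in the Hdc window lay 221 bases before the start, and the Mcpt8 window held 0. The core of the Gfi1 motif, AATC on either strand, lay in 7 of the 10 windows, those of Hdc, Cpa3 and Ms4a2 among them, and in 69.0% of all windows. A motif of the MITF family (CACGTG, or CATGTG with 1 letter changed, on either strand) lay in the Fcer1a window alone among the 7 genes, and in 17.6% of all windows. These are matches of letters and were not tested as binding sites.

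Before the members, the targeted gene and the arrays were checked. The only Gfi1 probe set had no lower signal in the knockout-labelled group, at 692, 1163 and 1737 for knockout arrays 5, 7 and 8, against 632, 608 and 723 on wild-type arrays 5, 7 and 8 (difference 0.76 ± 0.28 SE on the log2 scale, limma adjusted p = 0.148). Whether it lies in the deleted part is not given in the labels, so every direction below rests on those labels. Array medians ran from 286 to 335. The level of background was taken on each array as the brightest of its 27 Bacillus controls and ran from 100.2 to 162. Among surface markers of stem and progenitor cells, Cd34, with 13294 to 18188 on knockout arrays and 15603 to 20461 on wild-type arrays, did not pass the test, and Kit, which the sort used, and Flt3 were lower (values below for Kit; Flt3 by a difference of -1.19 ± 0.19, limma adjusted p = 0.00515).

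Hdc was the member that stood apart. Probe set 1454713_s_at had signals of 1286, 3052 and 2921 on knockout arrays 5, 7 and 8, against 166, 252 and 1100.4 on wild-type arrays 5, 7 and 8. All 3 knockout arrays were brighter than all 3 wild-type arrays, though wild-type 8 came close to knockout 5. The means were 2420 ± 984 in the knockout-labelled group and 506 ± 516 in the wild-type group (SD, n = 3 each). On the log2(signal + 16) scale the knockout-labelled group was higher by 2.58 ± 0.52 (SE). The dimmer probe set, 1451796_s_at, had signals of 1016, 1685 and 2099 on knockout arrays 5, 7 and 8, against 48.2, 93.4 and 304 on wild-type arrays 5, 7 and 8. Its groups did not overlap either, but wild-type 5 and 7 lay below the Bacillus controls. The fitted difference of 3.56 ± 0.46 (SE) therefore rests on 1 of 3 wild-type signals above background, and its size is uncertain. Both probe sets carry the suffix that marks probes shared by several transcripts, and which transcripts add to the signal was not tested.

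Cpa3 was higher on every knockout array by a smaller margin. Its signals were 2953, 3547 and 3057 on knockout arrays 5, 7 and 8, against 1512, 1704 and 2543 on wild-type arrays 5, 7 and 8. The means were 3186 ± 317 in the knockout-labelled group and 1920 ± 548 in the wild-type group (SD, n = 3 each), and the difference was 0.76 ± 0.21 (SE). The difference did not pass the threshold used for the whole table, an adjusted p of 0.05, but passed it once sample numbers were blocked.

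The granule protein genes Mcpt8 and Prg2 did not separate the groups. Mcpt8 had signals of 988, 1056 and 1153 on knockout arrays 5, 7 and 8, against 886, 485 and 1129 on wild-type arrays 5, 7 and 8. Wild-type 7 was the low array, and wild-type 8 lay within the range of the knockout arrays. The difference was 0.43 ± 0.27 (SE). Prg2 had signals of 439, 529.5 and 614 on knockout arrays 5, 7 and 8, against 262, 226 and 979.5 on wild-type arrays 5, 7 and 8. Wild-type 8 was the brightest of all 6 arrays and the other wild-type arrays were the dimmest, which gave a difference of 0.41 ± 0.42 with an SD of 425 in the wild-type group and 87.7 in the knockout-labelled group.

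The IgE receptor chains gave low signals. Ms4a2 had signals of 293, 359 and 228 on knockout arrays 5, 7 and 8, against 437, 302 and 211 on wild-type arrays 5, 7 and 8. The groups covered the same range and the difference was -0.07 ± 0.31 (SE). Fcer1a was too dim for the brightness filter of the test and read 199, 159 and 217 on knockout arrays 5, 7 and 8, against 52.6, 90.7 and 254 on wild-type arrays 5, 7 and 8. All 3 knockout arrays lay above the Bacillus controls, against only number 8 among the wild-type arrays, and the groups overlapped.

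Mitf also showed no separation. Its brighter probe set, 1455214_at, had signals of 233, 424 and 168 on knockout arrays 5, 7 and 8, against 384, 254 and 205 on wild-type arrays 5, 7 and 8. The lowest and the highest array were both knockout arrays, and the difference was -0.08 ± 0.35 (SE). Its other probe set, 1422025_at, was below the Bacillus controls on all 6 arrays, with 17.5, 106 and 29.5 on the knockout arrays and 33.0, 40.3 and 46.3 on the wild-type arrays, and gives only a bound.

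**Figure D1:**
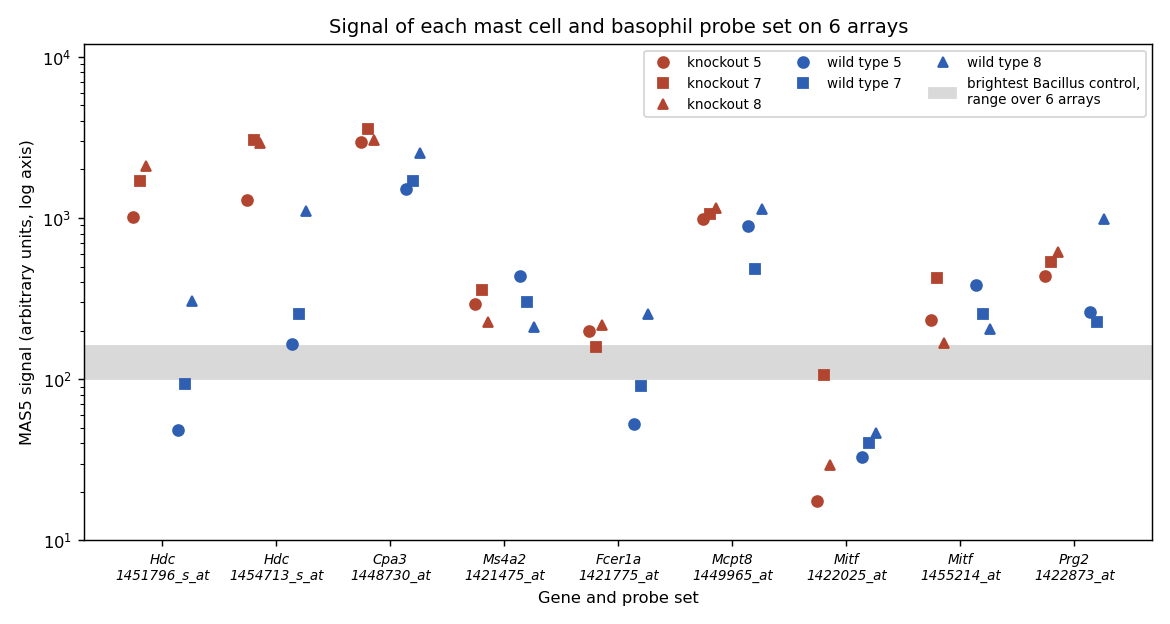
MAS5 signal in arbitrary units (log axis) of the 9 probe sets on each of the 6 arrays, knockout in red to the left of wild type in blue. The grey band is the range of the brightest Bacillus control. The groups do not overlap for the 2 Hdc probe sets and Cpa3, and wild-type 8 (blue triangle) is the brightest wild-type array for 7 of the 9.

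In all, 7 of the 9 probe sets, of 6 genes, passed the brightness filter. The dimmer Hdc probe set passed it through its knockout arrays, since its wild-type arrays were mostly at background. Past the threshold of the whole-table fit were 2 probe sets, both of Hdc and both higher, and 0 lower, where 1.44% of the 13575 probe sets tested were called higher and 2.19% lower. The groups did not overlap for 3 of the 7, Hdc with both probe sets and Cpa3, all higher, where 11.9% of all probe sets tested were higher and 12.1% lower without overlap. Because the genes were chosen from this contrast, nothing is read from these counts.

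The SD of the linear signal was smaller in the knockout-labelled group than in the wild-type group for Cpa3, Ms4a2, Fcer1a, Mcpt8 and Prg2. It was larger in it for both probe sets of Hdc and of Mitf. For Hdc the means differed too, at 2420 ± 984 against 506 ± 516 for 1454713_s_at and 1600 ± 547 against 149 ± 137 for 1451796_s_at (SD). Relative to its mean, Hdc 1454713_s_at thus varied less in the knockout-labelled group. With 3 arrays per group, its wild-type SD came mostly from wild-type 8, at 1100.4 against 166 and 252. For 1451796_s_at the wild-type spread was not measured, with wild-type 5 and 7 below the controls. Wild-type 8 was the brightest wild-type array for both Hdc probe sets, Cpa3, Fcer1a, Mcpt8 and Prg2. It was the dimmest for Ms4a2 and the brighter Mitf probe set. It was also the brightest for the dim Mitf probe set, where all signals lay below the controls and the order has no weight. On the log2 scale wild-type 8 exceeded the mean of wild-type 5 and 7 by 2.34 for Hdc 1454713_s_at, by 1.93 for Hdc 1451796_s_at (with wild-type 5 and 7 below the controls), by 1.94 for Prg2, by 0.77 for Mcpt8 and by 0.66 for Cpa3. Compared within sample numbers, knockout minus wild type for Hdc 1454713_s_at was 2.84 for number 5, 3.52 for number 7 and 1.40 for number 8. For Cpa3 the same differences were 0.96, 1.05 and 0.26, and for Prg2 they were 0.71, 1.17 and -0.66. Hdc and Cpa3 were thus higher in the knockout sample of every number, and number 8 gave the smallest difference for both.

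**Figure D2:**
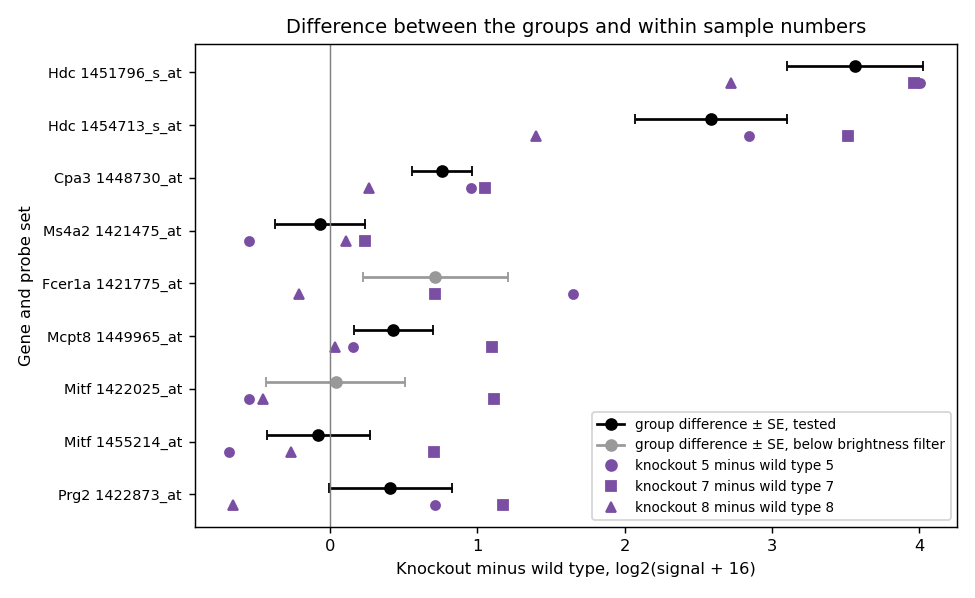
Knockout minus wild type on the log2(signal + 16) scale for the 9 probe sets. Circles with bars are the fitted group difference ± SE (grey for the 2 probe sets below the brightness filter, from the fit without it), and purple marks are the differences within sample numbers 5, 7 and 8. Hdc lies above 0 for all 3 numbers, and for Prg2 number 8 lies below 0 at -0.66.

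Leaving wild-type 8 out moved the differences to 3.36 and 4.21 for the 2 Hdc probe sets, 0.98 for Cpa3, 0.68 for Mcpt8 and 1.05 for Prg2, and Cpa3 then passed the threshold. Hdc 1454713_s_at did not pass without knockout 7, knockout 8 or wild-type 7 (differences of 2.37, 2.40 and 2.33). The fitted difference of Hdc 1451796_s_at ran from 3.05 to 4.21 with 1 array left out, with the same limit of wild-type signals below background. Mcpt8 ran from 0.09 to 0.68 and Prg2 from 0.03 to 1.05 with 1 array left out, with no call in any of these fits. Ms4a2 ran from -0.32 to 0.18 and Mitf 1455214_at from -0.43 to 0.20.

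The genes nearest in pattern to Hdc were Ms4a3, Ctsg and Hp. Likeness was the root mean square distance between profiles over the 6 arrays, each centred on its own mean, against 12426 tested probe sets of other genes. Ms4a3, a membrane protein of granulocyte-monocyte progenitors and basophils, lay at 0.55 log2 units, Ctsg, the cathepsin G protease of neutrophil and mast cell granules, at 0.61, and Hp, haptoglobin, at 0.64. Since they were picked for nearness to Hdc, the pattern they share with it is no separate result. Each of the 3 had its 3 knockout arrays above its wild-type arrays, and wild-type 8 highest among the wild-type arrays. Ms4a3 read 2560 on wild-type 8, against 718 and 778 on wild-type 5 and 7. The dimmer Hdc probe set lay at 0.53. Cpa3 ranked 118 and Prg2 144 of 12426 in distance from Hdc, at 1.13 and 1.16. Profiles were not scaled, so the distance also reflects how large each difference was. Nearest to Cpa3 were Cdk5r1, Abcf2 and Grb10, at 0.06, 0.07 and 0.09, none of which is a granule gene. Mcpt8, the nearest other member, ranked 1809 in distance from Cpa3.

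**Figure D3:**
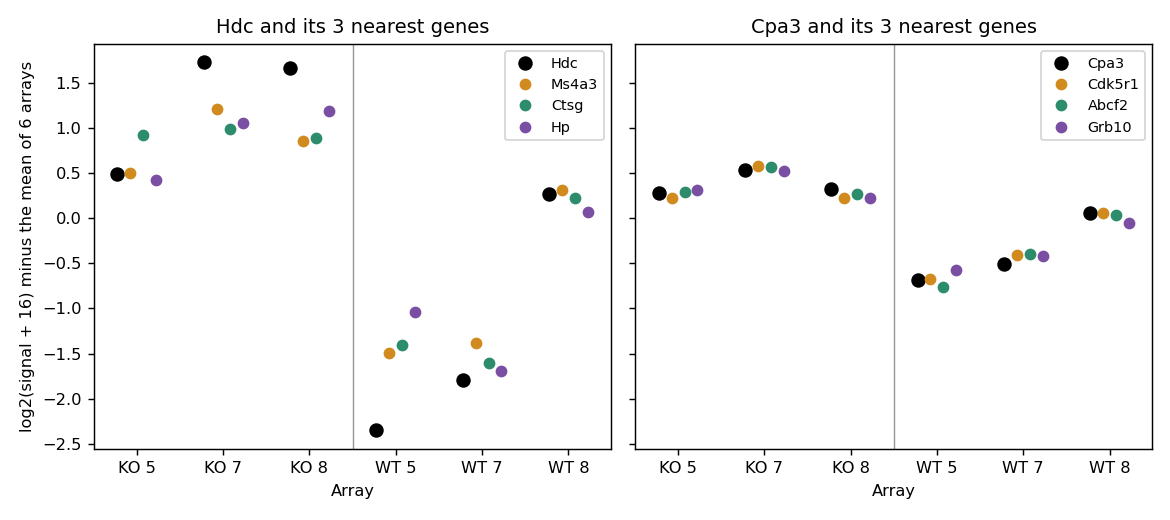
log2(signal + 16) minus the mean of the 6 arrays, for Hdc (left panel) and Cpa3 (right panel) in black and the 3 genes nearest to each in colour, on knockout arrays and then wild-type arrays. In the left panel wild-type 8 lies apart from wild-type 5 and 7 for all 4 genes, which follows from the choice by nearness to Hdc.

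Genes that work with the members were described from 6 lists, on which 88 of 110 genes had a probe set and 57 were tested, each by its brightest probe set. Of these 4 rose and 2 fell, where 1.41% of all 8239 genes tested were called higher and 2.49% lower. The median difference was -0.04, against -0.01 over all genes. The lists, like the members, were chosen with earlier results of these data known. Nothing is therefore read from these counts or from how the calls fell among the lists. The adjusted p-values of listed genes describe this same contrast and are no separate test.

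Of 9 tested growth factor receptor genes 2 rose and 2 fell, with a median of 0.15. Csf2rb2 and Csf2rb, the beta chains through which interleukin-3 drives basophil and mast cell growth, rose. Csf2rb2 had signals of 6537, 8186 and 8791 on knockout arrays 5, 7 and 8, against 1954, 1620 and 1495 on wild-type arrays 5, 7 and 8 (difference 2.20 ± 0.18 SE, limma adjusted p = 2.12e-05). Csf2rb had 1053, 1599 and 1328 on the knockout arrays, against 278, 264 and 368 on the wild-type arrays (2.07 ± 0.23, limma adjusted p = 0.000495). In both genes all 3 wild-type arrays lay below all 3 knockout arrays. Il3ra, the specific alpha chain of the interleukin-3 receptor, stood at 0.27 ± 0.24 (limma adjusted p = 0.606).

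Kit, the stem cell factor receptor that mast cells need and that the sort used, fell. It had 3512, 4669 and 4496 on knockout arrays 5, 7 and 8, against 5871, 7052 and 7774 on wild-type arrays 5, 7 and 8 (-0.71 ± 0.17 SE, limma adjusted p = 0.0381). The groups did not overlap, but the call was lost in 8 of 15 alternatives, 5 of them with knockout 5, 7 or 8 or wild-type 7 or 8 left out (adjusted p up to 0.132). A dimmer probe set of Kit stood at -0.57 ± 0.28 (limma adjusted p = 0.286). Il7r, the interleukin-7 receptor chain that also serves in the TSLP receptor, fell by 1.97 ± 0.28 (limma adjusted p = 0.00217). Crlf2, its partner in the TSLP receptor, stood at 0.15 ± 0.20 (limma adjusted p = 0.744), and Tgfbr2 at -0.18 ± 0.16 (limma adjusted p = 0.576).

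Of 14 tested genes of IgE and IL-33 receptor signalling, 0 passed in limma in either direction. Of the 14, 2 lay above 0 and 12 below, with a median of -0.17, where 49.2% of all genes tested lay above 0. Several of these differences were near 0, such as Vav1 at -0.02. Some of the genes also had a dimmer probe set on the other side of 0. Nothing is therefore read from this count. The adaptors Lcp2 (-0.83 ± 0.27 SE, adjusted p = 0.110), Lat (-0.59 ± 0.19, adjusted p = 0.112) and Gab2 (-0.65 ± 0.25, adjusted p = 0.162) had the smallest limma p-values, and Lcp2 passed once sample numbers were blocked (adjusted p = 0.0474). A dimmer probe set of Lcp2 stood at -0.09 ± 0.33 (limma adjusted p = 0.914), so its probe sets disagreed. Fcer1g, the gamma chain that Fcer1a and Ms4a2 share the IgE receptor with, was below the brightness filter and is named after its values were seen. It had signals of 420, 417 and 393 on knockout arrays 5, 7 and 8, against 147, 32.9 and 43.8 on wild-type arrays 5, 7 and 8. All 3 wild-type arrays lay at or below the Bacillus controls and all 3 knockout arrays above them, so the gene was at least 3.09-fold higher in the knockout-labelled group (limma adjusted p = 0.0421 in the fit without the filter). The bound is the ratio on the log2(signal + 16) scale, with each wild-type array at its brightest control.

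Of 13 tested granule and mediator genes 1 rose and 0 fell, with a median of 0.01. Ctsg had 16621, 17374 and 16263 on knockout arrays 5, 7 and 8, against 3303, 2871 and 10263 on wild-type arrays 5, 7 and 8 (1.86 ± 0.34 SE, limma adjusted p = 0.0104). Wild-type 8 lay apart from the other wild-type arrays in this gene as in Hdc. Ctsg was already picked above for nearness to Hdc, so this likeness is no separate result. The call of Ctsg was lost without the brightness filter (limma adjusted p = 0.0603), with eBayes without trend (0.0566) and without knockout 8 (0.0572), and its protein is made in neutrophil progenitors too. Ctsd stood at 0.54 ± 0.19 (adjusted p = 0.136 in limma, and 0.0482 once sample numbers were blocked), Rab27b, a GTPase of granule release, at -0.91 ± 0.33 (adjusted p = 0.139) and Srgn, the proteoglycan core that packs granules, at -0.31 ± 0.16 (adjusted p = 0.297). Ctsd passed without wild-type 8 and Rab27b without wild-type 5 (adjusted p down to 0.0351 and 0.0469 over their alternatives).

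Of 9 tested surface and cytokine genes 1 rose and 0 fell, with a median of 0.04. Fcgr3, a low-affinity IgG receptor, had 793, 1103 and 962 on knockout arrays 5, 7 and 8, against 406, 341 and 599 on wild-type arrays 5, 7 and 8 (1.09 ± 0.25 SE, limma adjusted p = 0.0285). It was called in 10 of 16 settings, and leaving out either of knockout 7 and 8, or either of wild-type 5 and 7, lost the call (adjusted p up to 0.127). Cd33 (-0.42 ± 0.24, adjusted p = 0.364), Itga4 (-0.30 ± 0.23, adjusted p = 0.519) and Il18r1 (-0.32 ± 0.29, adjusted p = 0.598) did not pass in limma. The probe sets of Fcgr2b, an inhibitory IgG receptor named after its values were seen, disagreed. The brightest stood at 0.16 ± 0.24, and a dimmer one, shared by several transcripts, at 1.25 ± 0.26 (limma adjusted p = 0.0201). Another dimmer probe set stood at 0.72 ± 0.37 and was not called (limma adjusted p = 0.307).

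Of 11 transcription regulators tested, 0 passed in limma, and the median was 0.08. Lmo2 (-0.29 ± 0.13 SE, adjusted p = 0.216), Runx1 (-0.46 ± 0.22, adjusted p = 0.277) and Spi1 (0.29 ± 0.21, adjusted p = 0.494) had the smallest p-values. Gata2, named after its values were seen for its role in both lineages, had 2419, 2397 and 1918 on knockout arrays 5, 7 and 8, against 1867, 1920 and 1925 on wild-type arrays 5, 7 and 8 (0.23 ± 0.17, limma adjusted p = 0.519). A dimmer probe set of Gata2 stood at -0.38 ± 0.39 (limma adjusted p = 0.656), on the other side of 0. Of the eosinophil genes only Epx, the eosinophil peroxidase, was bright enough to test, with 130, 168 and 309.9 on knockout arrays 5, 7 and 8, against 249, 126 and 504 on wild-type arrays 5, 7 and 8 (-0.39 ± 0.44, limma adjusted p = 0.693). Its brightest array was wild-type 8, as for Prg2. Prg3, the closest relative of Prg2 on the array, was below the Bacillus controls on all 6 arrays.

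**Figure D4:**
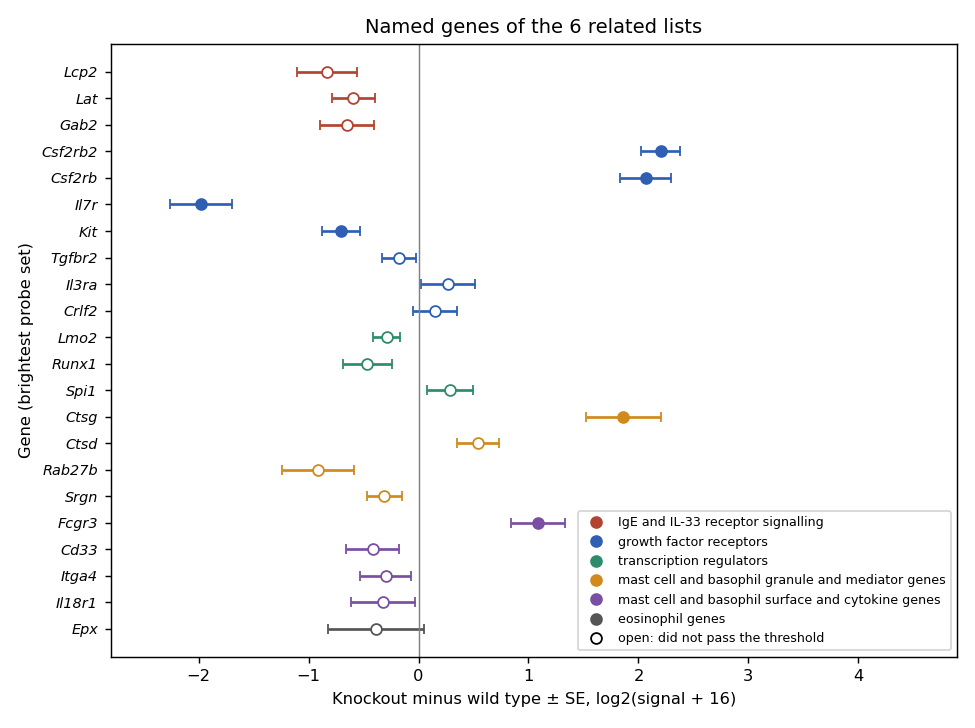
Knockout minus wild type ± SE on the log2(signal + 16) scale for the named genes of the 6 related lists, each by its brightest probe set and coloured by list. Filled circles passed the threshold: Csf2rb2, Csf2rb, Ctsg and Fcgr3 were higher, Il7r and Kit lower.

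Markers of mature mast cells gave signals at or near background. Of 10 such genes 8 had a probe set and 0 were bright enough to test. Tpsab1, a tryptase, exceeded the Bacillus controls on all 6 arrays, with 123 to 226 on knockout arrays and 120 to 187 on wild-type arrays, while the chymases Mcpt1 and Mcpt4 exceeded them on none. Cma1 (41.8 to 139 on knockout arrays, 80.2 to 211 on wild-type arrays), Mcpt2 (66.4 to 226 and 43.5 to 69.4), Tpsb2 (97.6 to 197 and 104 to 297), Tpsg1 (74.3 to 138 and 14.5 to 92.0) and Tph1 (83.6 to 152 and 63.4 to 151) exceeded them on some arrays. The 8 signals summed to 675 to 1179 on knockout arrays and 757 to 868 on wild-type arrays. In bulk RNA a change in the number of cells that express a gene and a change in RNA per cell cannot be told apart.

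Markers of some other cells also differed between the groups, and their part in the results was not tested. Of B and plasma cell markers, 0 of the 7 tested were called in either direction. The same held for 0 of 2 T and NK cell markers and 0 of 5 megakaryocyte and platelet markers. Of 5 dendritic cell markers tested, 0 were called higher and 1 lower, which was Flt3. Over all genes tested, 1.41% were called higher and 2.49% lower. Monocyte and macrophage markers, 12 of 14 with a probe set, summed to 16515, 25561 and 21420 on knockout arrays 5, 7 and 8, against 8726, 12788 and 17438 on wild-type arrays 5, 7 and 8, and 4 of the 10 tested were called higher and 0 lower. As for Hdc, wild-type 8 had the highest sum of the wild-type arrays, but Vcam1 alone read 1324, 3555 and 8160 on wild-type 5, 7 and 8. Of the 4 called markers, Ccr2 and Ms4a6c were dimmest on wild-type 8 among the wild-type arrays, and Csf1r lay between. Ccl6 was brightest on it, with wild-type signals of 120 to 162, near background. Neutrophil markers, 11 of 12 with a probe set, summed to 8351 to 17777 on knockout arrays and 22652 to 45361 on wild-type arrays, with wild-type 8 the lowest of the wild-type arrays, and 1 of the 10 tested was called higher and 5 lower. Erythroid markers, 9 of 12 with a probe set, summed to 8644 to 10953 on knockout arrays, against 19467, 19035 and 35091 on wild-type arrays 5, 7 and 8, and 0 of the 8 tested were called higher and 1 lower. Car2, the marker called lower, read 3278 to 4924 on knockout arrays and 12329 to 17042 on wild-type arrays. Wild-type 8, the wild-type array brightest for Hdc, Cpa3 and Prg2, thus also had the highest erythroid sum. Most of that sum came from Car2 (17042) and Ermap (10075). Klf1, Epor, Car1 and Rhd were also brightest on wild-type 8 among the wild-type arrays, but Alas2 (373) and Slc4a1 (477) were dimmest on it.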

How the data were processed

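The 6 samples had 1 single-colour Affymetrix array each. The authors' deposited values are linear intensity values, 1 signal per probe set, made with MAS5 per the submitters' processing notes. The sources used here give no MAS5 version, settings or detection calls. The deposited columns were already scaled (mean after trimming 2% at each end, 1000.33 to 1000.37). The number of arrays limits the precision.

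These were taken as log2(signal + 16), without normalizing again. Of 22690 probe sets, 64 AFFX controls were left out, and the 60% with the highest mean log2 value (13575) were tested. limma 3.58.1 in R 4.3.3 (lmFit, eBayes with trend, two-sided) gave knockout minus wild-type differences with Benjamini-Hochberg adjustment over all probe sets tested, threshold 0.05, and was tested on simulated data. Genes of lists were taken by their brightest probe set with 1 symbol.

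The members and lists were chosen with earlier results of these data known. Named were all member probe sets, Gfi1, Kit, Cd34, Flt3 and mature mast cell markers, in each related list the genes past the threshold and up to 3 more with the smallest p, and the 3 profiles nearest to Hdc and to Cpa3. Other genes are said to be named after their values were seen.

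As a check of pairing, each sample's deviation from its group mean was correlated across probe sets between knockout and wild-type samples. Same-numbered samples gave 0.159 (5), 0.168 (7) and 0.238 (8), and other pairs -0.134 to -0.0307. Deviations within a group cancel, so the negative values of other pairs are not separate evidence. The numbers were taken as a possible pairing. Standard errors, adjusted p-values and calls come from the fit without pairing unless the block is named. The blocked fit is given where it changes a call. Alternatives were 2 other pseudocounts, no filter, 3 normalizations, eBayes without trend, the block, no _s_at and _x_at probe sets, and each array left out.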

Additional observations from a re-analysis of the deposited data

How the results depend on the processing

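The 2 member probe sets past the threshold, both of Hdc, became 1 without the brightness filter and 1 with eBayes without trend. In both settings 1454713_s_at lost its call, and 1451796_s_at, with wild-type 5 and 7 below the controls, kept it. The count became 0 when _s_at and _x_at probe sets were left out, which removes both Hdc probe sets by construction, and 1 to 3 with single arrays left out. The 0 member probe sets called lower stayed 0 in every alternative. The 4 related genes called higher became 2 with eBayes without trend and 2 to 5 with single arrays left out (2 without knockout 8). The 2 called lower became 1 without the filter, 1 with median centring, 1 with eBayes without trend and 1 to 3 with single arrays left out. With the sample number as a replicate block 3 member probe sets were called higher, the added one being Cpa3, and 5 related genes were called higher and 3 lower. Among the member probe sets and the related genes by their brightest probe set, the block changed no other call than those of Cpa3, Lcp2 and Ctsd. Over all alternatives, 103 of 103 refitted member differences moved by less than the spread between replicates. Leaving out 1 of 3 arrays cannot move a difference further than that, and the filter, trend and block settings leave it unchanged. Nothing is therefore read from that count. Hdc 1454713_s_at was called in 10 of its 15 settings. Among 330 refitted differences of named related genes 17 lost and 4 gained a call and 2 changed sign. The 2 that changed sign were Il18r1, at 0.0068 without wild-type replicate 8 (-0.51 to 0.0068 with single arrays left out), and Epx, at 0.088 without it (-0.85 to 0.088). Over the whole table, 196 probe sets were called higher and 297 lower, against 69 and 119 without the filter, 57 and 124 with eBayes without trend, 320 and 479 with the block, and 34 to 266 and 90 to 282 with single arrays left out. The cause of these changes was not tested. Hdc 1451796_s_at and Fcer1a on wild-type 5 and 7 and Mitf 1422025_at on all arrays lay below the Bacillus controls, so their signals there are only bounds.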
